A study of Homo sapiens with 4 samples.

Results

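Collagen, laminin and integrin genes encode the fibres and sheets of the extracellular matrix and the cell surface receptors that hold on to them. The genes were picked by a symbol rule that uses no measured value, though the set was chosen with earlier results of these data known. In a RefSeq gene table of GRCh38.p14, 75 of 19122 autosomal protein-coding genes matched, namely 42 collagens, 12 laminins, 13 integrin alpha subunits and 8 integrin beta subunits. They were examined in a study that mapped BAF45D on the genome of H9 human embryonic stem cells (ESC), an established human cell line, and of spinal cord neural stem cells (NSC) made from the same line. BAF45D, the product of DPF2, belongs to BAF, a multi-subunit complex that moves nucleosomes, and it was mapped by CUT&Tag, in which an antibody guides a transposase to the DNA beside its target. There were 2 libraries per cell type, ESC1, ESC2, NSC1 and NSC2, from 100000 cells per assay, each with its own list of peaks. The labels name no gene edit or transgene in either cell type. Per the labels' protocols the ESC were kept in mTeSR1 on Matrigel, itself a basement membrane extract. Neural induction of the NSC took 10 days in N2B27 with LDN-193189, SB431542, CHIR-99021, FGF2, FGF8 and DAPT. The NSC were then held in a maintenance medium with SB-431542, CHIR-99021 and the hedgehog agonist Hh-Ag 1.5 for 5 subpassages before culture with FGF2 and EGF. The labels do not say whether the 2 libraries of a cell type came from separate cultures, so the spread between them may be technical.

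Collagens assemble from 3 chains into fibrils, networks or microfibrils, and laminins from 1 alpha, 1 beta and 1 gamma chain into the sheet of the basement membrane. Integrins pair 1 alpha with 1 beta subunit and link these ligands to the actin cytoskeleton, and the ITGB1 subunit takes part in most of the pairs that bind collagens and laminins. In the embryonic spinal cord, neural stem cells reach the basement membrane at the outer surface of the neural tube with their end feet, where laminins and their integrin receptors hold them.

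The promoters with the strongest NSC peaks among these genes are shown first, since the clearest gene-end results concern them. A RefSeq table for GRCh38.p14 held the 300 bases around the start (250 before to 50 after) for 53 of the 75 genes, with more than 1 start for some of them, and 10 of the 53 had a start window under a peak in both NSC libraries. The 5 that ranked highest by −log10 q, averaged over the NSC lists, are printed 5′ to 3′ on the gene's own strand, with each GC box, GGGCGG or its reverse complement CCGCCC, in capitals. They lie at chr7:20330650-20330949 on the plus strand (ITGB8), chr1:103108473-103108772 on the minus strand (COL11A1), chr6:75206004-75206303 on the minus strand (COL12A1), chr2:186589806-186590105 on the plus strand (ITGAV) and chr10:32958181-32958480 on the minus strand (ITGB1).
ITGB8: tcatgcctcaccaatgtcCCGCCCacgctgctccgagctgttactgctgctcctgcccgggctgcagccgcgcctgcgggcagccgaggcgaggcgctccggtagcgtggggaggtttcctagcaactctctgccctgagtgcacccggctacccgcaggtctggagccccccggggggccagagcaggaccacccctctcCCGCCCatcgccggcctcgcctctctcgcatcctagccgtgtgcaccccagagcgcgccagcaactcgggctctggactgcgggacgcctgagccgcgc
COL11A1: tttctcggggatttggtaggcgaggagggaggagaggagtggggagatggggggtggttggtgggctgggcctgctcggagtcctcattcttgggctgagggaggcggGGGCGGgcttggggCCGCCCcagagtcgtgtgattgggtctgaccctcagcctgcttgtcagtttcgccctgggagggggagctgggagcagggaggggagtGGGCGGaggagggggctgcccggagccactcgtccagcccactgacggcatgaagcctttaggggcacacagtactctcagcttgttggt
COL12A1: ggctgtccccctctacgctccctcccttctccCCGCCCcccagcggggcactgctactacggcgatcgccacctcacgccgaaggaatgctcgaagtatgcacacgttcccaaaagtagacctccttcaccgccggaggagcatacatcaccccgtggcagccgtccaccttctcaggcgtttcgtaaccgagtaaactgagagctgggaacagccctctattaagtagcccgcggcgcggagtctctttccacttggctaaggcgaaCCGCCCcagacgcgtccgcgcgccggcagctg
ITGAV: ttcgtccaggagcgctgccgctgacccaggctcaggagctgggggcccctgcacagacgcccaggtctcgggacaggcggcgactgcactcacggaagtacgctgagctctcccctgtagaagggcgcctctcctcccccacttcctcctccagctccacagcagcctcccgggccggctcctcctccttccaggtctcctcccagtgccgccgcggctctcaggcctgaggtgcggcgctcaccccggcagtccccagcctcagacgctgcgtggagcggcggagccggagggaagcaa
ITGB1: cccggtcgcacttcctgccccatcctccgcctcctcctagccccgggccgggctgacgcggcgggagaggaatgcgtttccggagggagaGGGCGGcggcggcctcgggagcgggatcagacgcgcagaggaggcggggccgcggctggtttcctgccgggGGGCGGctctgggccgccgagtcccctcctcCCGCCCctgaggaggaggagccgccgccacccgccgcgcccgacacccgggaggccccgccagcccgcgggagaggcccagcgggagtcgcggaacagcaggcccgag

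These 5 promoters had a G and C content of 63.3% to 78.3%. GC boxes numbered 3 at COL11A1 and at ITGB1 and 2 at ITGB8 and at COL12A1, and the ITGAV window held none. In the NSC lists the ITGB8 and COL11A1 peaks covered all 300 bases, whereas in ESC1 and ESC2 the COL11A1 peak covered 173 and 174 bases and the other 4 promoters had no peak. The other 5 promoters with a peak in both NSC libraries were those of LAMC1, ITGA2, LAMA2, ITGA1 and ITGA5. Of the 53 genes, 1, 6, 15 and 12 had a peak over at least 1 of their start windows in ESC1, ESC2, NSC1 and NSC2, against 6.05%, 21.3%, 42.4% and 37.6% of the 15100 autosomal protein-coding genes in the same table. As shares of the 53 these counts are 1.89%, 11.3%, 28.3% and 22.6%, below the share over all genes in each library. Motifs were searched as letters on both strands of 1 window per gene, that of the outermost start. A GC box stood in 56.6% of the 53 windows and in 58.7% of the 15100, a CCAAT box (CCAAT) in 18.9% and 36.0%, a TATA box (TATAAA) in 11.3% and 9.83%, and an AP-1 motif (TGANTCA) in 3.77% and 5.64%. The largest gap among the 4 motifs was therefore in the CCAAT box. A match describes the letters only, not binding.

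The peak lists themselves differed in length. In the order ESC1, ESC2, NSC1 and NSC2, chromosomes 1 to 22 held 4054, 12159, 28887 and 23942 peaks, from 20734829, 18953543, 5566407 and 5377831 tags. The lowest pileup of a peak was 8, 7, 4 and 4, not scaled to the number of tags. These values therefore do not tell which lists were called more leniently. Where a gene has no peak, its signal stayed under the caller's threshold, and peaks were called without a control library. The labelled cell types were checked against marker genes. Of 10 neural markers, 7 (SOX1, NES, VIM, ZIC1, OLIG2, NKX6-1 and POU3F2) had a peak within 1 kb of a gene end in both NSC and no ESC library (all genes 16.4%). PAX6, HOXB4 and MSI1 had no gene-end peak in any library. None of 8 mesenchyme, 4 neural crest or 4 endothelial markers had a gene-end peak in either NSC library (all genes 43.5% in NSC1 and 38.7% in NSC2). In the gene or within 10 kb, NSC1 and NSC2 had peaks at 5 and 4 of the mesenchyme markers, 3 and 1 of the neural crest markers and 3 and 1 of the endothelial markers. Among all genes 64.9% and 60.0% had such a peak in NSC1 and NSC2. Of 8 pluripotency markers, L1TD1 had a gene-end peak in both ESC libraries alone, and SOX2 and LIN28A had one in all 4 libraries. DNMT3B had one in ESC2 alone (−log10 q 1.94). POU5F1, NANOG, ZFP42 and PRDM14 had no gene-end peak in any library, and POU5F1 had a peak within 10 kb in all 4. The pluripotency markers thus told the cell types apart less well than the neural markers.

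Peaks at the collagen, laminin and integrin genes were more numerous in NSC than in ESC, by about as much as peaks over the whole genome. Within 1 kb of a gene end there were 1, 12, 26 and 23 distinct peaks in ESC1, ESC2, NSC1 and NSC2. Counted over the whole gene with 10 kb on either side, called the locus here, there were 12, 63, 143 and 125. Both NSC libraries thus stood above both ESC libraries, and ESC1 stood far below ESC2. At gene ends NSC averaged 24.5 ± 2.12 peaks and ESC 6.5 ± 7.78 (SD, n = 2 each), which is 3.77 times as many. At loci NSC averaged 134 ± 12.7 and ESC 37.5 ± 36.1 (SD, n = 2 each), 3.57 times as many. With 1 library left out the factor lay between 2.04 (without ESC1) and 24.5 (without ESC2) at gene ends and between 2.13 and 11.2, without the same libraries, at loci. For all autosomal peaks it was 3.26. An exact permutation test of the library labels, two-sided, gave p = 0.333 for both counts, the smallest value that 2 libraries against 2 allow. The share of each library's peaks that lay at these loci was 0.296%, 0.518%, 0.495% and 0.522%, so that ESC2 lay among the NSC libraries and ESC1 below (mean difference 0.10 percentage points, exact permutation p = 0.667). The difference was −0.0096 percentage points without ESC1. When each list was limited to its 4054 strongest peaks, the factor was 2.00 at gene ends and 1.06 at loci.

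**Figure D1:**
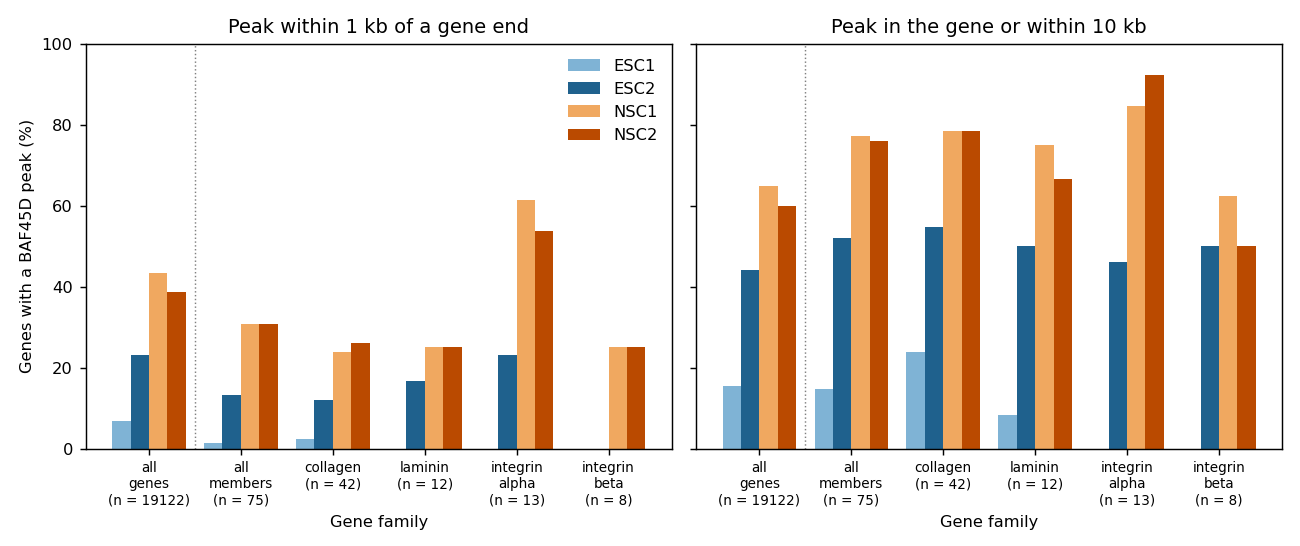
Percentage of genes with a BAF45D peak within 1 kb of a gene end (left) and at the locus, the gene with 10 kb on either side (right), for all 19122 autosomal protein-coding genes, all 75 collagen, laminin and integrin genes and their 4 families. Each bar is 1 library, so there is no error bar. At gene ends the 75 genes lie below all genes in every library, and integrin alpha genes are the family with the highest NSC bars. At loci the 75 genes lie above all genes in ESC2, NSC1 and NSC2.

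Gene ends of this set were less often at a peak than those of all genes, and loci more often except in ESC1. The number of genes with a gene-end peak was 1, 10, 23 and 23 of 75 in ESC1, ESC2, NSC1 and NSC2, which is 1.33%, 13.3%, 30.7% and 30.7%. Among all 19122 genes the shares were 6.80%, 23.2%, 43.5% and 38.7%. The number of genes with a locus peak was 11, 39, 58 and 57 of 75, or 14.7%, 52.0%, 77.3% and 76.0%, against 15.5%, 44.1%, 64.9% and 60.0% of all genes. These genes are long, with a median length of 98.2 kb against 24.5 kb for all genes, and long genes hold more peaks. Compared within classes of length, a locus peak in both NSC libraries was found at 10 of 22 genes under 50 kb (45.5%, all genes 47.6%), 21 of 27 genes of 50 to 150 kb (77.8%, all genes 66.9%) and 22 of 26 genes over 150 kb (84.6%, all genes 85.9%). At gene ends the corresponding counts were 3 of 22 (13.6%, all genes 33.0%), 9 of 27 (33.3%, all genes 41.4%) and 5 of 26 (19.2%, all genes 36.6%). The share at gene ends was thus lower in each class of length, while the shares at loci were near those of all genes except for a gap of a few genes in the middle class; these gaps were not tested.

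**Figure D2:**
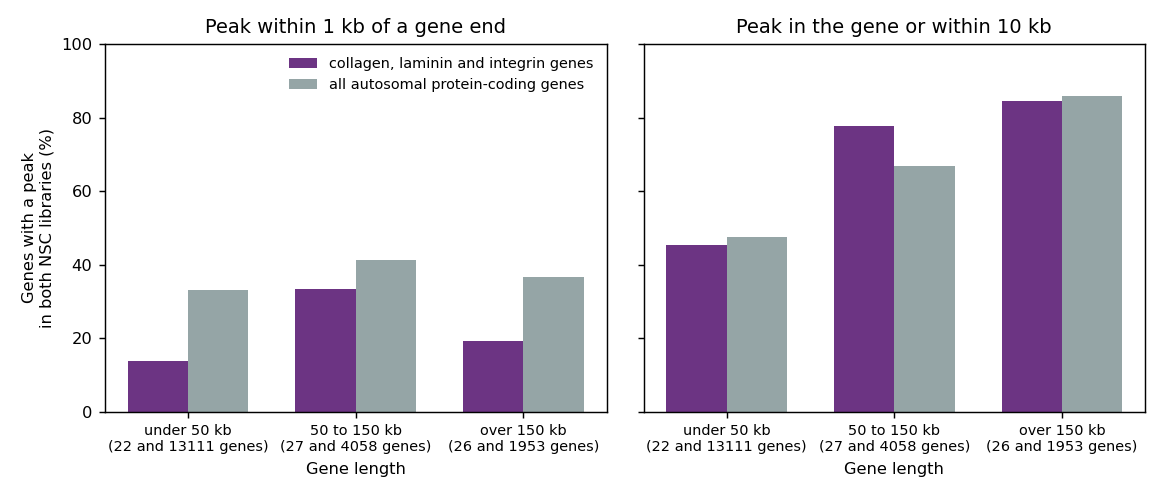
Percentage of genes with a peak in both NSC libraries, at gene ends (left) and at loci (right), by gene length, for the collagen, laminin and integrin genes and for all autosomal protein-coding genes. The number of genes in each class stands under the bars as members, then all genes. At gene ends the members are lower in each class, and at loci the 2 sets differ by more than 3 percentage points in the middle class alone.

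The peaks at these loci lay inside the genes more than peaks at other genes did. In NSC1, 70.6% of the 143 peaks were inside a gene and away from any gene end, against 52.8% of peaks at other protein-coding loci, and in NSC2 68.0% against 51.1%. ESC2 gave 63.5% against 42.9%, and ESC1, with 12 peaks, 66.7% against 45.7%. These shares were not matched for gene length, whose median was 98.2 kb for this set and 24.5 kb for all genes. Whether position within the gene differs at equal length was not tested. Peak density per Mb of locus was 1.04, 5.44, 12.4 and 10.8 in ESC1, ESC2, NSC1 and NSC2, below the 1.76, 6.00, 13.8 and 11.5 of other genes. By −log10 q the peaks had a median percentile within their lists of 36.7, 52.4, 54.3 and 53.6 in ESC1, ESC2, NSC1 and NSC2. Peaks at other genes stood at 50.4, 54.2, 51.8 and 51.8.

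Genes were then sorted by the libraries that held a peak. At gene ends, 11 of the 75 genes (14.7%) had a peak in both NSC and no ESC library, close to the 16.4% of all genes. They were COL12A1, COL5A3, COL6A1, COL6A3, LAMC1, ITGA2, ITGA5, ITGA11, ITGAV, ITGB1 and ITGB8. The converse pattern, both ESC and no NSC library, was found at 0 of 75 genes and at 0.251% of all genes. A gene-end peak in all 4 libraries was found at 1 gene, COL11A1 (all genes 6.01%), and 42 genes (56.0%, all genes 50.5%) had none in any library. At loci, 20 genes (26.7%) had peaks in both NSC and no ESC library (all genes 19.7%), 9 (12%) had peaks in all 4 (all genes 12.2%), 0 in both ESC libraries alone (all genes 0.706%), and 11 (14.7%, all genes 25.2%) had none. The 20 NSC-only loci became 43 without ESC2, 4 with equal list lengths and 10 with a flank of 50 kb. With a −log10 q of at least 5 required, 5 genes were NSC-only at gene ends, among them COL12A1, ITGA11, ITGAV and ITGB8 of the 11 above. The remaining gene was COL11A1, whose gene-end peaks in ESC1 and ESC2 had a −log10 q of 2.37. With equal list lengths 2 genes were NSC-only, and ITGB8 was the gene of the 11 that stayed. COL11A1 then was not NSC-only and no longer had a gene-end peak in all 4 libraries.

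**Figure D3:**
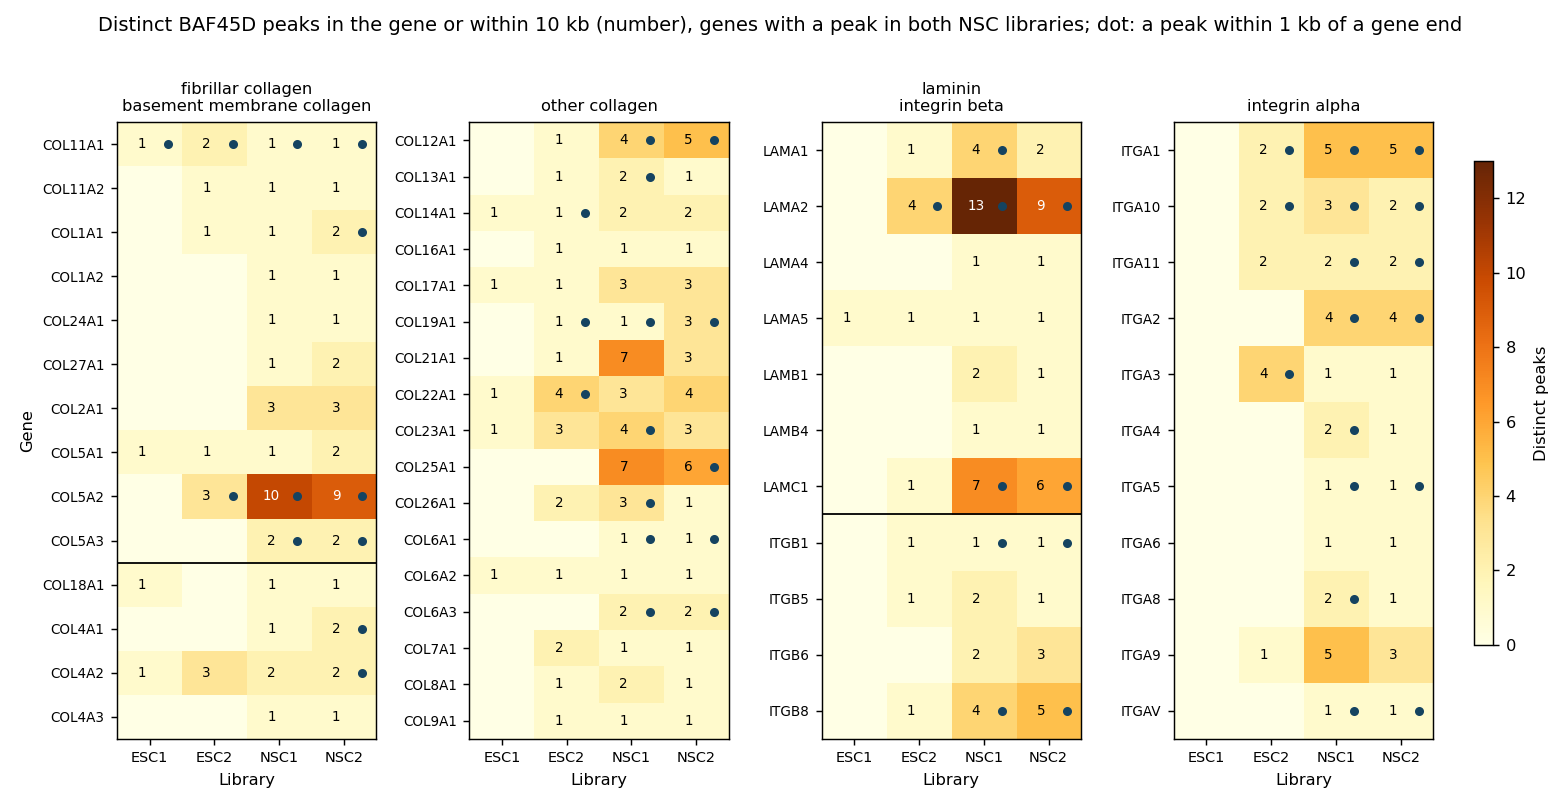
Number of distinct BAF45D peaks in the gene or within 10 kb, by library, for the 53 of the 75 genes with such a peak in both NSC libraries, with the colour scale giving the same number and a dot marking a peak within 1 kb of a gene end. Empty cells had no peak. LAMA2 reaches 13 peaks in NSC1 and COL5A2 10, and the ESC1 column is empty for all integrin genes shown.

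Among integrins, the receptors themselves, the alpha subunits were the family with the most frequent gene-end peaks. They had gene-end peaks at 0, 3, 8 and 7 of 13 genes in ESC1, ESC2, NSC1 and NSC2, or 0%, 23.1%, 61.5% and 53.8%, which in the NSC is above the shares of all genes given above. The family is small and was not tested apart. The 4 alpha subunits that bind collagens, ITGA1, ITGA2, ITGA10 and ITGA11, a group made with the values known, each had a gene-end peak in both NSC libraries, where 33.0% to 41.4% of all genes had one, depending on length. The ITGA2 start peak had a −log10 q of 4.39 in NSC1 and 4.68 in NSC2 and no counterpart in ESC. The ITGA11 peak had 13.2 and 11.6, but it lay at the 3′ end of ITGA11 and also within 1 kb of an end of FEM1B. At ITGA10 the peak was likewise at the 3′ end, with 10.7 in ESC2, 3.96 in NSC1 and 4.03 in NSC2. The ITGA1 peaks, with 5.82 at most in ESC2, 2.96 in NSC1 and 4.67 in NSC2, also lay at an end of PELO. Only ITGA2 of these 4 thus had a start peak that was not shared with a neighbour.

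Locus peaks in NSC alone were found at ITGAV, ITGA5, ITGA4 and ITGA8 among others, genes grouped here with their values known (19.7% of all genes had them in both NSC libraries and no ESC library). ITGAV, which pairs with several beta subunits, had 1 peak at its start in each NSC library, with a −log10 q of 8.14 and 7.25. ITGA5, the alpha subunit of the classical fibronectin receptor, had weaker start peaks of 3.07 and 1.38, that of NSC2 just past the q threshold of 0.05. ITGA4 and ITGA8 had a gene-end peak in NSC1 (4.60 and 4.04) and none in NSC2, although both had another peak at the locus in NSC2 of 3.30 and 4.51. ITGA9, whose product also binds fibronectin and tenascin, had 0, 1, 5 and 3 locus peaks in ESC1, ESC2, NSC1 and NSC2, none at a gene end.

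Laminin receptors among the alpha subunits include ITGA6, ITGA3 and ITGA7, a group made with the values known. ITGA6, which pairs with ITGB1 or ITGB4, had no gene-end peak and 1 locus peak in each NSC library (−log10 q 3.32 and 7.08). ITGA3 went the other way: it had 0, 4, 1 and 1 locus peaks in ESC1, ESC2, NSC1 and NSC2, and its gene-end peak was in ESC2 alone (2.5). ITGA7 had weak peaks in ESC2 (1.57) and in NSC2 (1.90), the latter also at an end of BLOC1S1. The leukocyte subunit ITGAX had no peak in any library.

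Among the 8 beta subunits, ITGB8 and ITGB1 had gene-end peaks, in both NSC libraries and in neither ESC library (25.0%, all genes 16.4%). Counting any gene-end peak, all genes stood at 43.5% in NSC1 and 38.7% in NSC2, above the 25.0% of this family. ITGB8 pairs with ITGAV in a receptor that activates latent TGF-beta. Its start peak had a −log10 q of 29.6 in NSC1 and 14.2 in NSC2, the strongest gene-end peak of the 75 genes in NSC1. The locus had 0, 1, 4 and 5 peaks in ESC1, ESC2, NSC1 and NSC2. All 4 regions with an NSC peak in both libraries lacked an ESC peak, and the single ESC2 peak, of 1.94, lay elsewhere in the gene. ITGB1 had 1 start peak in each NSC library (4.84 and 6.03), and a weaker ESC2 peak of 2.46 elsewhere at the locus. ITGB5 had 0, 1, 2 and 1 locus peaks, none within 1 kb of the ends of the gene table, although an NSC1 peak lay over a start window of the promoter table inside that span. ITGB6, an epithelial subunit, had 0, 0, 2 and 3 locus peaks away from its ends. ITGB4, of hemidesmosomes, and ITGB7, of leukocytes, had no peak in any library.

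Laminin genes had gene-end peaks at 0, 2, 3 and 3 of 12 genes and locus peaks at 1, 6, 9 and 8 in ESC1, ESC2, NSC1 and NSC2. LAMC1, the gamma chain of most laminins, had 0, 1, 7 and 6 locus peaks over a gene of 122 kb. Its start peaks had a −log10 q of up to 5.77 in NSC1 and 4.91 in NSC2, and neither ESC library had a peak there. LAMA2, the alpha chain of laminins in muscle and peripheral nerve, had the most locus peaks of the 75 genes, 0, 4, 13 and 9, and is also the longest of them at 633 kb. The LAMA2 start had a peak in ESC2 (3.84), NSC1 (4.90) and NSC2 (2.77). LAMA1 and LAMB1, chains of the first laminin of the embryo, had 0, 1, 4 and 2 and 0, 0, 2 and 1 locus peaks, and the LAMA1 gene-end peak was in NSC1 alone (3.02). LAMA4, a vascular laminin chain, had 1 peak in each NSC library (4.14 and 2.93), at different places. LAMA4, LAMB1 and LAMB4 were the laminin genes with locus peaks in both NSC and no ESC library (25.0%, all genes 19.7%). At none of them did an NSC1 peak overlap an NSC2 peak. At LAMA5, whose chain is in the laminins used to culture pluripotent cells, all 4 libraries shared 1 region, which lay 6072 bp outside the gene near ADRM1 and OSBPL2. LAMA3 and LAMB3, epithelial chains, had no peak in any library.

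Collagen genes had gene-end peaks at 1, 5, 10 and 11 of 42 genes in ESC1, ESC2, NSC1 and NSC2 (2.38%, 11.9%, 23.8% and 26.2%). They had locus peaks at 10, 23, 33 and 33 (23.8%, 54.8%, 78.6% and 78.6%). At gene ends these shares lay below those of all genes in each library (6.80%, 23.2%, 43.5% and 38.7%). At loci they lay above them (all genes 15.5%, 44.1%, 64.9% and 60.0%), in a family of long genes. The collagen share of each library's peaks at loci was 0.271%, 0.288%, 0.256% and 0.292%, so it did not separate the cell types. Among the 11 fibrillar collagens, COL11A1, of cartilage and notochord fibrils, had the gene-end peak in all 4 libraries, with a −log10 q of 2.37, 2.37, 10.3 and 16.8 in ESC1, ESC2, NSC1 and NSC2. Each value belongs to its own list, and the peak stood at percentile 21.95 of ESC1 and 19.7 of ESC2, and at 78.5 of NSC1 and 91.8 of NSC2. COL5A3, a chain of the type of collagen that starts fibrils, had a gene-end peak of 11.2 in NSC1 and 4.77 in NSC2 alone. These peaks lay inside the gene, 832 and 813 bp from its start, and over no start window of the promoter table. COL5A2 had 0, 3, 10 and 9 locus peaks over a span of 409 kb. Its gene-end peaks, with at most 5.95 in ESC2, 21.7 in NSC1 and 11.9 in NSC2, all lay at an end of WDR75 as well. COL2A1, the main cartilage collagen, had 0, 0, 3 and 3 locus peaks, none at a gene end.

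The main collagens of connective tissue had few peaks. COL1A1 had 0, 1, 1 and 2 locus peaks, with a gene-end peak in NSC2 alone (5.14). COL1A2 had 1 in each NSC library (4.60 and 4.26), in a shared region 8839 bp outside the gene. COL3A1 had no peak in any library, and COL5A1 had 1, 1, 1 and 2, none at a gene end. COL9A1, which decorates cartilage fibrils, had 0, 1, 1 and 1, and the ESC2 peak (3.30) lay over a start window inside the gene.

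The 6 autosomal basement membrane collagens had no gene-end peak in ESC1, ESC2 or NSC1. COL4A1 and COL4A2, which are transcribed in opposite directions from a shared promoter, had 1 gene-end peak between them, in NSC2, with a weak −log10 q of 2.05. At their loci COL4A1 had 0, 0, 1 and 2 peaks and COL4A2 1, 3, 2 and 2. COL18A1, the precursor of endostatin, had 1, 0, 1 and 1, and its NSC peak inside the gene had 18.1 in NSC1 and 8.02 in NSC2. The X-linked partners COL4A5 and COL4A6 lie outside the autosomal rule. COL4A6 had 0, 2, 3 and 3 locus peaks, of which 1 in ESC2 and 1 in NSC2 lay at a gene end. COL4A5 had 0, 1, 0 and 1, none at a gene end.

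Among the other collagens, COL12A1, a fibril-associated chain, had start peaks of 8.03 and 8.20 in NSC1 and NSC2 and 0, 1, 4 and 5 locus peaks. COL6A1, a chain of beaded microfibrils, had a gene-end peak of 2.60 and 6.53 in NSC1 and NSC2, and its partner COL6A3 had one of 8.06 and 4.58 at its 3′ end. COL25A1, a transmembrane collagen of neurons, had 0, 0, 7 and 6 locus peaks over 494 kb, of which 1, in NSC2, was at a gene end (3.00). COL21A1 had 0, 1, 7 and 3, none within 1 kb of the ends of its span, but ESC2 (23.9) and NSC1 had peaks over different start windows inside it. COL10A1, of hypertrophic cartilage, was the gene with peaks in ESC1 alone, 2 of them. Among collagens, gene-end peaks in ESC2 alone were found at COL14A1 and COL22A1.

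**Figure D4:**
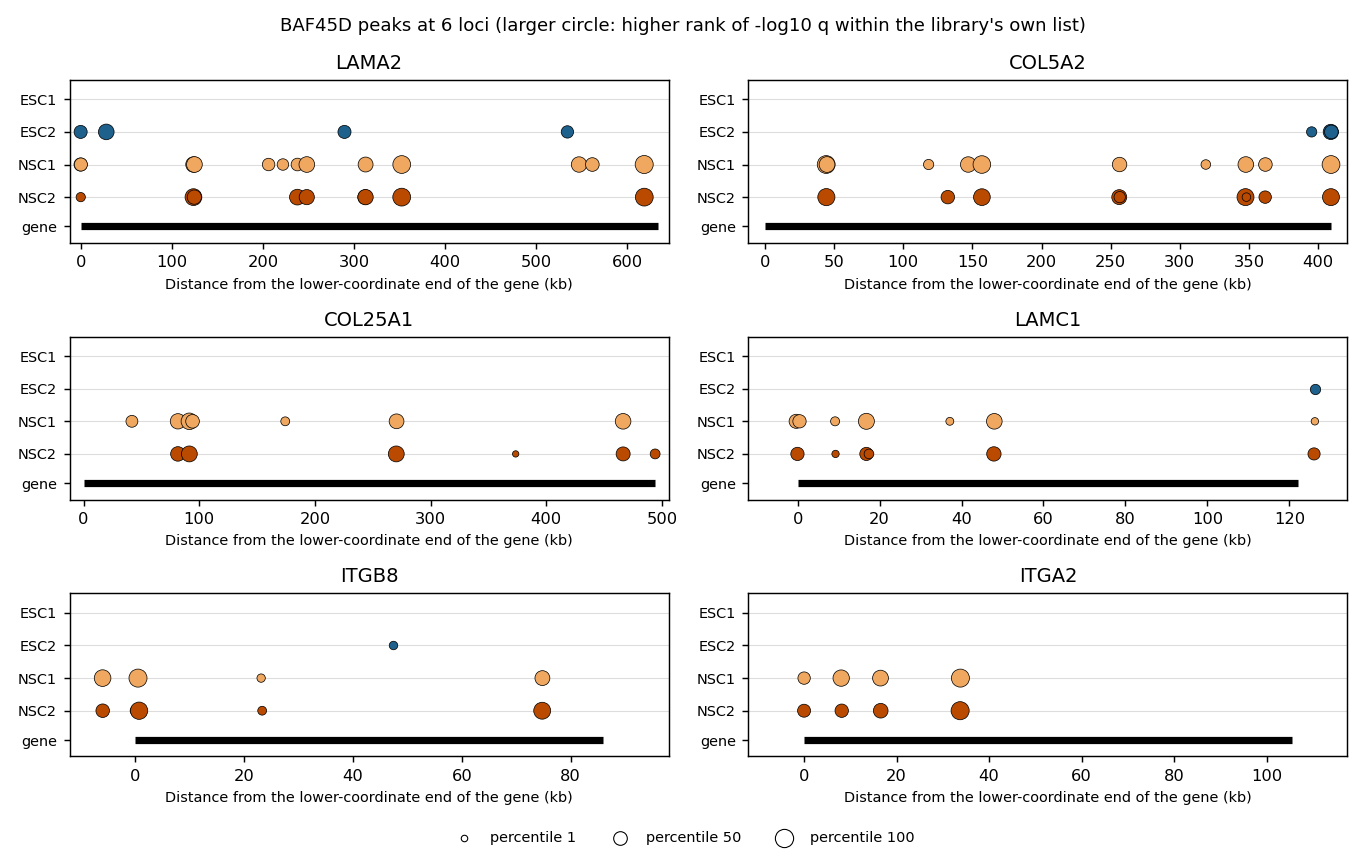
BAF45D peaks at 6 loci by library, plotted by distance in kb from the lower-coordinate end of the gene, which is drawn as a black bar. Larger circles mark peaks with a higher rank of −log10 q within their own list. Peaks of NSC1 and NSC2 overlap in 8 of the 16 regions at LAMA2, 6 of 11 at COL5A2 and 4 of 9 at COL25A1, and the ESC1 rows are empty at all 6 loci.

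Peaks of the 4 libraries were merged into 217 regions at these loci, of which 77 (35.5%, 95% Wilson interval 29.4% to 42.1%) had a peak in both NSC and no ESC library. At other protein-coding loci the share was 30.3%. The 77 became 42 with a −log10 q of at least 5, 8 with equal list lengths and 125 without NSC2. There were 5 regions with peaks in all 4 libraries (2.30%, other loci 4.15%) and 2 in both ESC libraries alone (0.922%, other loci 1.30%), inside COL4A2 and COL22A1. The 77 regions were spread over 40 genes, of which 11 held 3 or more. LAMA2 held 7, COL5A2 held 5, COL25A1, ITGA2, ITGB8 and LAMC1 held 4 each, and COL12A1, COL21A1, COL22A1, COL2A1 and ITGA1 held 3 each. Inside genes lay 56 of the 77, at gene ends 12 and outside within 10 kb 9. The NSC libraries repeated each other at these loci as they did elsewhere, with 97 of the 125 NSC2 peaks (77.6%, 69.5% to 84.0%) overlapping an NSC1 peak and 76.6% at other loci.

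The strongest of the NSC-only regions, ordered by their mean percentile of −log10 q in the NSC lists, lay inside ITGA2 and LAMA2, far from a start. The first was at chr5:53022693-53023534, 33.8 kb into ITGA2, with a −log10 q of 28.7 in NSC1 and 31.2 in NSC2. The next were both in LAMA2, at chr6:129501225-129502221, 619 kb from the start (30.5 and 20.6), and at chr6:129235172-129235963, 352 kb from the start (20.8 and 20.8). In the same order there followed a region 5012 bp outside COL22A1 (29.3 and 14.9), the ITGB8 start region at chr7:20329634-20330990 (29.6 and 14.2) and a region inside COL5A2 at chr2:189075773-189076868 (22.5 and 13.1). Coordinates are in hg38.

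Of the regions found in all 4 libraries, the strongest lay inside COL23A1, a transmembrane collagen, at chr5:178585391-178585825, 4.78 kb from the start, with a −log10 q of 24.0, 28.3, 12.2 and 18.3 in ESC1, ESC2, NSC1 and NSC2. COL17A1, a collagen of hemidesmosomes, had one at chr10:104035994-104036344, 49.7 kb from its start and within 10 kb of SLK (26.3, 18.6, 17.3 and 6.73). Those near LAMA5 and COL6A2 lay outside the genes, and that of COL11A1 was at the promoter printed above. The strongest ESC1 peaks at these loci, at COL17A1 and COL23A1, were therefore at places that the NSC libraries shared. The next strongest, inside COL4A2, had 7.24 in ESC1 and 4.45 in ESC2 and no peak in either NSC library.

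NSC regions, meaning those where both NSC libraries had a peak, were matched by an ESC peak less often at these loci than at other genes. Of 92 such regions, 15 (16.3%, 95% Wilson interval 10.1% to 25.2%) were matched in 1 or both ESC libraries, against 29.5% of 11995 at other loci. Of the 92, 24 lay within 1 kb of any gene end, against 5627 of the 11995. At gene ends it was 9 of 24 (37.5%, 21.2% to 57.3%) against 48.9%, and away from gene ends 6 of 68 (8.82%, 4.11% to 17.9%) against 12.4%. The share was thus lower in both positions, but within either one the interval held the value of the other genes, and regions of 1 gene are not independent. Among the 15 with an ESC peak were regions at the shared end of COL5A2 and WDR75, at the starts of LAMA2 and ITGA1, and inside COL1A1. Without ESC2 the share was 5.43%, since that library held most ESC peaks.

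**Figure D5:**
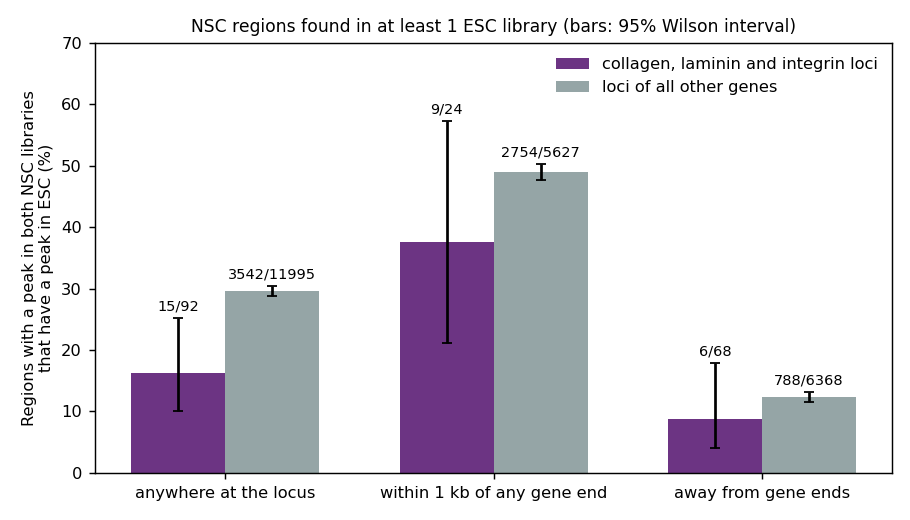
Percentage of NSC regions (a peak in NSC1 and in NSC2) that are matched by a peak in ESC1 or ESC2, at the loci of the 75 genes and of all other protein-coding genes, for all regions and by position. Error bars are Wilson intervals at the 95% level for counting error, and the numbers above them give matched over all regions. The share at the 75 genes is 16.3% against 29.5% for all regions, 37.5% against 48.9% at gene ends and 8.82% against 12.4% away from them.

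Partner genes of the same pathway were counted by the same rule, from lists that hold none of the 75 genes. Of 23 genes of the integrin adhesion machinery inside the cell, 7 (30.4%) had a gene-end peak in both NSC and no ESC library, beside 16.4% of all genes. They were FERMT2, ILK, LIMS1, ZYX, PTK2, ACTN1 and ACTN4, which include the integrin activator kindlin (FERMT2), focal adhesion kinase (PTK2) and the actin crosslinkers of adhesions (ACTN1 and ACTN4). ZYX had a −log10 q of 11.6 and 7.45, PTK2 10.3 and 4.64 and ILK 8.22 and 7.09 in NSC1 and NSC2. VCL, which ties adhesions to actin, had 25.7 and 19.7 in the NSC libraries but also 7.88 in ESC2.

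Of 25 other matrix glycoproteins and proteoglycans, 5 (20.0%, all genes 16.4%) were in the NSC-only class at gene ends: NID1, FBN2, THBS1, LUM and VCAN. FBN2, a microfibril protein of embryonic tissue, had a −log10 q of 16.4 and 15.0 at its end and 0, 0, 7 and 8 locus peaks, and NID1, which joins laminin to collagen networks, had 4.30 and 3.25. FN1, the fibronectin gene, had a gene-end peak in ESC2 (4.91) as well as in NSC1 (5.50) and NSC2 (3.22). Of 25 genes for collagen processing 3 (12%) were in the class, below the 16.4% of all genes. They were P4HA1, CRTAP and PPIB, which all take part in prolyl modification or prolyl folding of procollagen. P4HA1 had 15.0 and 8.04. The 5 integrin genes outside the symbol rule, ITGAL, ITGAM, ITGAD, ITGAE and ITGBL1, had no gene-end peak in any library. In the NSC libraries mesenchyme markers, beside which many collagens are usually expressed, had no gene-end peak but some locus peaks, as given above. TWIST1 of that list had a gene-end peak in ESC2 (3.09). The part of these markers in the results was not tested.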

How the data were processed

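The submitters' processing notes name FastQC, Trimmomatic, BWA 0.7.12 and the build hg38. Per the file headers, MACS2 2.1.0.20150420 called peaks in each library alone, at a q of 0.05 and with no control. The authors deposited for every peak a pileup signal, −log10 p and −log10 q values, and a fold enrichment, the ratio of pileup to local background. These describe a peak within its own list, so libraries were compared by presence of peaks.

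Entries with the same interval were joined, and autosomal peaks were set against gene spans from the RefSeq table with an overlap of at least 1 bp. Strand came from the promoter table, so gene starts and 3′ ends were told apart for 53 of the 75 genes; the other 22 are named without a promoter. Regions are peaks of the 4 libraries merged where they overlap. The overlap code was tested on simulated data. Scripts ran in Python 3.11.15 with pandas 2.3.3, numpy 2.4.6 and scipy 1.17.1.

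The members and lists were chosen with earlier results of these data known. Named were genes NSC-only, ESC-only or in all libraries at gene ends (up to 12 NSC-only), the 8 with most NSC locus peaks, a fixed set, and the 6 strongest regions per class. Genes named outside it were chosen after their values were seen. Alternatives were a −log10 q of at least 5, equal list length, an overlap of 100 bp, gene ends of 2.5 kb, flanks of 0 and 50 kb, each library left out, and a replicate block. Leaving out peaks at ends of other genes was added after seeing the data. Intervals are 95% Wilson intervals of counting error.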

Additional observations from a re-analysis of the deposited data

How the results depend on the processing

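The ratios of NSC to ESC peaks kept their direction under every alternative, from 2.04 to 24.5 at gene ends and from 2.13 to 11.2 at loci with 1 library left out, and 2.00 and 1.06 with equal list lengths. The share of peaks at loci differed by −0.0096 percentage points without ESC1, which turned its direction, up to 0.21 without ESC2. With a −log10 q of at least 5, gene ends gave 5 NSC-only genes and 0 in all libraries, loci 1 ESC-only and 2 in all libraries, and regions 42 NSC-only, 0 ESC-only and 2 in all libraries. Equal list lengths gave 2 and 0 at gene ends, 4 NSC-only, 3 ESC-only and 2 shared genes at loci, and 8 NSC-only and 1 shared region. Gene ends of 2.5 kb gave 2 genes in all libraries. Loci without a flank gave 3 regions in all libraries, and a flank of 50 kb gave 10 NSC-only genes, 17 genes and 10 regions in all libraries, and 26.6% of NSC regions with an ESC peak.

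With 1 library left out, NSC-only, ESC-only and shared genes ranged over 11 to 17, 0 to 4 and 1 to 6 at gene ends and over 21 to 43, 0 to 1 and 9 to 32 at loci. Regions ranged over 77 to 125, 2 to 44 and 5 to 15, and the share of NSC regions with an ESC peak over 5.43% to 16.3%. The high counts of shared and ESC-only genes and regions came without ESC1, and the 43 NSC-only loci without ESC2. Of the 33 named genes, 33 kept their gene-end class at an overlap of 100 bp and at 2.5 kb, 28 or 29 with a library left out, 28 without peaks at ends of other genes, 19 at the stricter q and 13 at equal length; the cause was not tested. Library numbers were not shown to pair the samples (r = −0.0952 between same-numbered deviations over 19122 genes), and the replicate block left the ratios at 3.77 and 3.57 and the difference at 0.10, with an exact p of 0.5, the smallest that 2 pairs allow.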
